A study of Mus musculus with 17 samples.

Results

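Proliferation and DNA replication genes were described in single cells sorted from skin and kidney. The list holds 40 cell cycle genes out of 30406 genes that all 17 libraries share, joined by Ensembl identifier. By role these are 11 genes of DNA replication licensing and the replication fork, 4 of deoxynucleotide synthesis, 12 mitotic cyclins, kinases and checkpoint genes, 9 of the spindle and kinetochore, and 4 chromatin and other proliferation markers. All mice carried PDGFRb-Cre and the Z/EG reporter, in which Cre switches on GFP in cells that express or once expressed PDGFRβ, with treatment given from an age of 8 weeks and GFP+ cells sorted afterwards. SARAWT mice lacked the SARATg transgene, whereas in SARATg mice Cre also switched on human SARA (ZFYVE9), an endosomal adaptor of TGF-β signalling. Skin libraries comprised SARAWT with subcutaneous PBS (3 libraries), SARAWT with bleomycin (3), SARATg with PBS (1) and SARATg with bleomycin (1), the drug at 20 mg/kg in 3 injections a week for 2 weeks. Kidneys came from SARAWT mice given intraperitoneal vehicle (3) or aristolochic acid (3) and SARATg mice given vehicle (2) or aristolochic acid (1), at 5 mg/kg, 3 injections a week for 3 weeks. Bleomycin breaks DNA and is used to scar skin, and aristolochic acid is a plant toxin that forms DNA adducts and injures the proximal tubule.

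A cell that divides first licenses its replication origins, when Cdc6 and Cdt1 load the ring-shaped MCM helicase (Mcm2 to Mcm7) on DNA and Gmnn (geminin) blocks a second loading. In S phase Pcna clamps the polymerase to DNA, Clspn (claspin) watches stalled forks, and thymidine kinase (Tk1), thymidylate synthase (Tyms) and ribonucleotide reductase (Rrm1, Rrm2) supply deoxynucleotides. Cdk1 with cyclins A2, B1 and B2 (Ccna2, Ccnb1, Ccnb2) then drives mitosis with the kinases Plk1, Aurka, Aurkb, Bub1 and Bub1b and the survivin gene Birc5, while Cdc20 and Ube2c act in the anaphase promoting complex that ends it. Kinetochore and spindle proteins (Cenpa, Cenpe, Cenpf, Kif11, Kif23, Nusap1, Tpx2, Prc1, Hmmr) move the chromosomes, Top2a untangles them and Mki67 (Ki-67) coats them. Hmgb2 bends DNA and Stmn1 destabilizes microtubules, and both, like Pcna, are also made outside the cell cycle. In healthy skin, basal and hair follicle keratinocytes divide, whereas tubule cells of the healthy kidney seldom do and can enter the cycle after injury.

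Many cell cycle genes share short promoter motifs, which is why 5 promoters are shown, 1 per role. They belong to the member of each role with the largest difference between T cells and macrophages of skin, the comparison in which most members passed the test. Each is the 250 bases before the start of the gene on the plus strand of GRCm38.p6, taken from RefSeq. They are Clspn at chr4:126556730-126556979, Rrm2 at chr12:24708004-24708253, Bub1b at chr2:118597961-118598210, Nusap1 at chr2:119618048-119618297 and Hmgb2 at chr8:57511593-57511842. Capitals mark the CCAAT box (CCAAT or, on the other strand, ATTGG), the letters TTTGAA or TTCAAA of the cell cycle homology region (CHR), or the E2F letters.
Clspn: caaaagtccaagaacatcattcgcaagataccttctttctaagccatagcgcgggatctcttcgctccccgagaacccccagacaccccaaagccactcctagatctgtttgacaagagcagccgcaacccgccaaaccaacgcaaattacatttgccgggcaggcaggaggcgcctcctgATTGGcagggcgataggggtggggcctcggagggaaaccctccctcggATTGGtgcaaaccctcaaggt
Rrm2: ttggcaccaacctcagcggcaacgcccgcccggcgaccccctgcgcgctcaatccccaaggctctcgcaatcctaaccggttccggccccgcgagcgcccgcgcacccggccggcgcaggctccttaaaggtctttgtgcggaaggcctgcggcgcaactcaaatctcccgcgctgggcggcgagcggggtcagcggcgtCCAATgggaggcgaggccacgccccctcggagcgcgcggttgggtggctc
Bub1b: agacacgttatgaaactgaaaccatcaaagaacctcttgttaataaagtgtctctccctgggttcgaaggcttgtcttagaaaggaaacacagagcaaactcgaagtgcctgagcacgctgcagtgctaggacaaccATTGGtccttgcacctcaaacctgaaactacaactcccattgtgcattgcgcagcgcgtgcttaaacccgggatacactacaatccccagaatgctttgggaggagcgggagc
Nusap1: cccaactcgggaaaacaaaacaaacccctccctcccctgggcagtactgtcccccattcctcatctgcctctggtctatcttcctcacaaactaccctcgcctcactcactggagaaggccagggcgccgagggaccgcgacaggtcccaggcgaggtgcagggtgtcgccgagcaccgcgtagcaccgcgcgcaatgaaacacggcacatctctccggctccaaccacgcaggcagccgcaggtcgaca
Hmgb2: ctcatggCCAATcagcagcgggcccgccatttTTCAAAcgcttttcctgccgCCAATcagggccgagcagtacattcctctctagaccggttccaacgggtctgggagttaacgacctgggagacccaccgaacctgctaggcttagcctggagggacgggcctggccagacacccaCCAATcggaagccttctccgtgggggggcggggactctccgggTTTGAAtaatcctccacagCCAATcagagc
Hmgb2 held 4 CCAAT boxes and 2 CHR matches, Clspn 2 CCAAT boxes, Rrm2 and Bub1b 1 each, and Nusap1 none of the motifs. Of the 40 members, 34 had a promoter in the RefSeq table, 36 promoters in all. The motifs were counted on both strands of the 250 bases before the start, each motif on its own even where matches share letters. A CCAAT box was in 30 of these 36 promoters (83.3%), against 33.8% of the 32851 promoters that were counted. The CHR letters were in 10 (27.8%, against 16%), always together with a CCAAT box, and both occurred together in 5.55% of the promoters that were counted. The E2F letters, TTT followed by a pair of letters each C or G and then CGC, were in 5 (13.9%, against 1.86%), namely those of Mcm5, Mcm6, Mcm7, Cdc6 and Cdk1.

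The deposited files gave 3355217 to 137093834 unique molecular identifiers (UMIs, 1 per captured RNA molecule) per library, and 776 to 9245 cells per library were kept, 28969 in skin and 58129 in kidney. Cells were gated into classes from 10 marker genes each, which placed 75.0% of skin and 90.9% of kidney cells, and class names stand for these gates. Ptprc (CD45), which marks leukocytes, exceeded Pdgfrb in all 17 libraries although the sort is labelled PDGFRb+GFP+. Skin SARAWT PBS 1 and 2 and bleomycin 1 and 2 were counted on a longer gene list than the other skin libraries and had Xist at 439 to 687 CPM (UMIs scaled to the library total, as parts per 1000000) against 0.155 to 0.628 CPM, so that gene list, replicate number and sex cannot be told apart. Zfyve9 went against the label in skin SARAWT PBS 3 (614 CPM, against 7.88 to 26.0 CPM in the other SARAWT skin libraries and 222 to 314 CPM in SARATg), kidney SARAWT aristolochic acid 1 (159 CPM) and kidney SARATg aristolochic acid (19.5 CPM), and the listed human ZFYVE9 entry stood at 845 CPM in skin SARAWT PBS 1, against 89.3, 115 and 190 CPM in SARAWT bleomycin 1, bleomycin 2 and PBS 2, the other libraries that list it. These 4 libraries are called those with Zfyve9 signal against the label below. Human ZFYVE9 was thus also counted in SARAWT bleomycin 1, bleomycin 2 and PBS 2, whose mice should lack the transgene. They were not left out with the 4, so fits without the 4 are not free of such signal. The SARATg libraries do not list the human entry and give no level to compare. In SARAWT PBS 2 of skin, the smallest library, 55.5% of the barcodes also occurred in another library, against 0.594% to 22.1% in the other skin libraries and 1.66% to 2.13% in kidney.

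The spread of the members over single cells was described first. In skin, 4197 of 28969 cells (14.5%) had at least 5 of the 37 members other than Pcna, Hmgb2 and Stmn1, and in kidney 2886 of 58129 (4.96%). These cells were deeper, with a median of 18104 against 6456 UMIs in skin and 15542 against 5359 in kidney, and they held 29.1% and 11.1% of all UMIs. Just outside and inside that number, 2339 skin cells had exactly 4 and 1330 exactly 5, and 1423 and 616 did in kidney. For each member, the share of its UMIs was taken in cells with at least 5 other members. The mitotic and spindle genes were the most concentrated, with role medians of 88.1% and 89.5% in skin and 92.6% and 90.5% in kidney, and replication genes the least (64.6% and 44.9%), with deoxynucleotide synthesis (81.6% and 61.0%) and the chromatin markers (69.6% and 73.5%) between them. Bub1 reached 97.8% in skin and 96.9% in kidney, Ccna2 97.2% and 96.6%, and Hmmr 95.5% and 97.8%.

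At the other end, Pcna had only 32.4% of its UMIs in such cells in skin and 36.0% in kidney, and Cdt1 31.96% and 35.8%. Gmnn (geminin), which holds Cdt1 back, was the lowest member in kidney, at 34.98%, but was at 64.6% in skin. Mki67 was at 65.8% in skin and 89.7% in kidney, and Cenpa at 35.6% and 65.2%. Outside these cells Cenpa, the histone variant of the centromere, stood at 297 CPM in natural killer cells and 216 CPM in T cells of skin. Kif23, a motor of cell separation, stood at 127 CPM in mast cells and 62.2 CPM in kidney neutrophils. Hmgb2 was at 689 CPM in skin neutrophils and 994 CPM in kidney neutrophils, Gmnn at 53.9 CPM in intercalated cells and 53.1 CPM in the thick ascending limb, and Stmn1 at 277 CPM in Schwann cells of skin. The shares of cells below use 37 members, without Pcna, Hmgb2 and Stmn1, and class shares are also given without Cenpa, Cdt1, Kif23 and Gmnn (33 members).

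**Figure D1:**
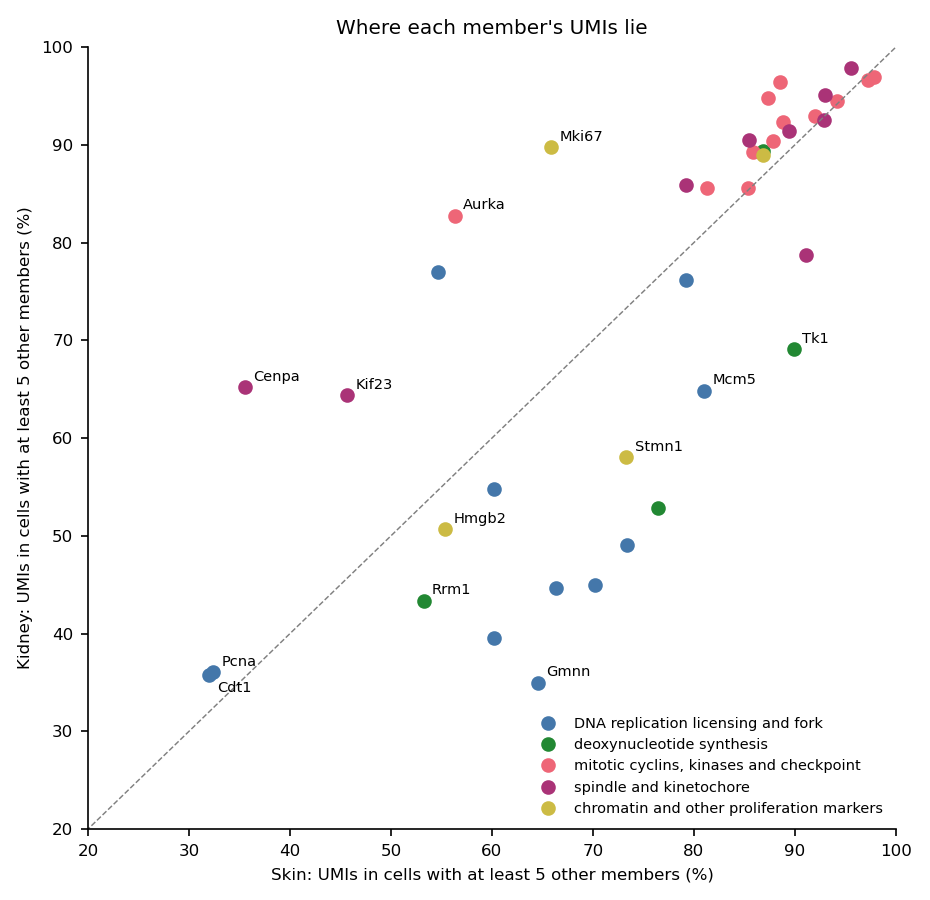
Percent of each member's UMIs found in cells with at least 5 other members, in skin (x axis) against kidney (y axis), 1 point per gene coloured by role, with a dashed line of equality. Most mitotic and spindle genes lie at the upper right, with Bub1 at 97.8% and 96.9%, while Cenpa lies at 35.6% and 65.2%, and Pcna and Cdt1 lie below 37% on both axes.

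The classes differed in how many of their cells carried members. To compare cells of unequal depth, each cell was thinned to 1000 UMIs and counted when at least 2 of the 37 members were found. In skin the median over libraries was 19.1% in natural killer cells, 18.4% in T cells or innate lymphoid cells (called T cells below), 12.5% in keratinocytes, 8.51% in stromal cells, 8.18% in dendritic cells and 5.12% in macrophages or monocytes (macrophages below). It was 0% in muscle cells (0% to 0.629%) and neutrophils (0% to 1.95%), whose median depths of 2012 and 2505 UMIs compare with 7229 over all skin cells. Mast cells, at a median depth of 1350 UMIs, had 6.17% (0% to 8.85%), above macrophages, but 1.77% with the 33 members. Their median share with at least 5 of the 37 members was 0%. Mural cells, in 4 libraries, had 5.65%, so no single background holds for all classes. In kidney the median share was 11.3% in dendritic cells, 7.34% in T cells, 4.93% in macrophages, 3.36% in natural killer cells, 2.37% in B cells and 2.04% in the proximal tubule, and 0% in the thick ascending limb and in intercalated cells. The ranges of neighbouring classes overlapped, as in skin T cells (15.2% to 25.7%) and keratinocytes (0% to 22.0%). With 33 members, a choice made after the data had been seen, the medians in skin were 14.4% in natural killer cells, 11.6% in T cells (5.23% to 13.5%), 10.4% in keratinocytes, 7.37% in stromal cells, 5.84% in dendritic cells and 2.62% in macrophages. In kidney they were 10.6% in dendritic cells, 5.35% in T cells, 4.53% in macrophages, 1.85% in natural killer cells, 1.51% in the proximal tubule and 1.01% in B cells, so that the last 2 classes changed places.

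**Figure D2:**
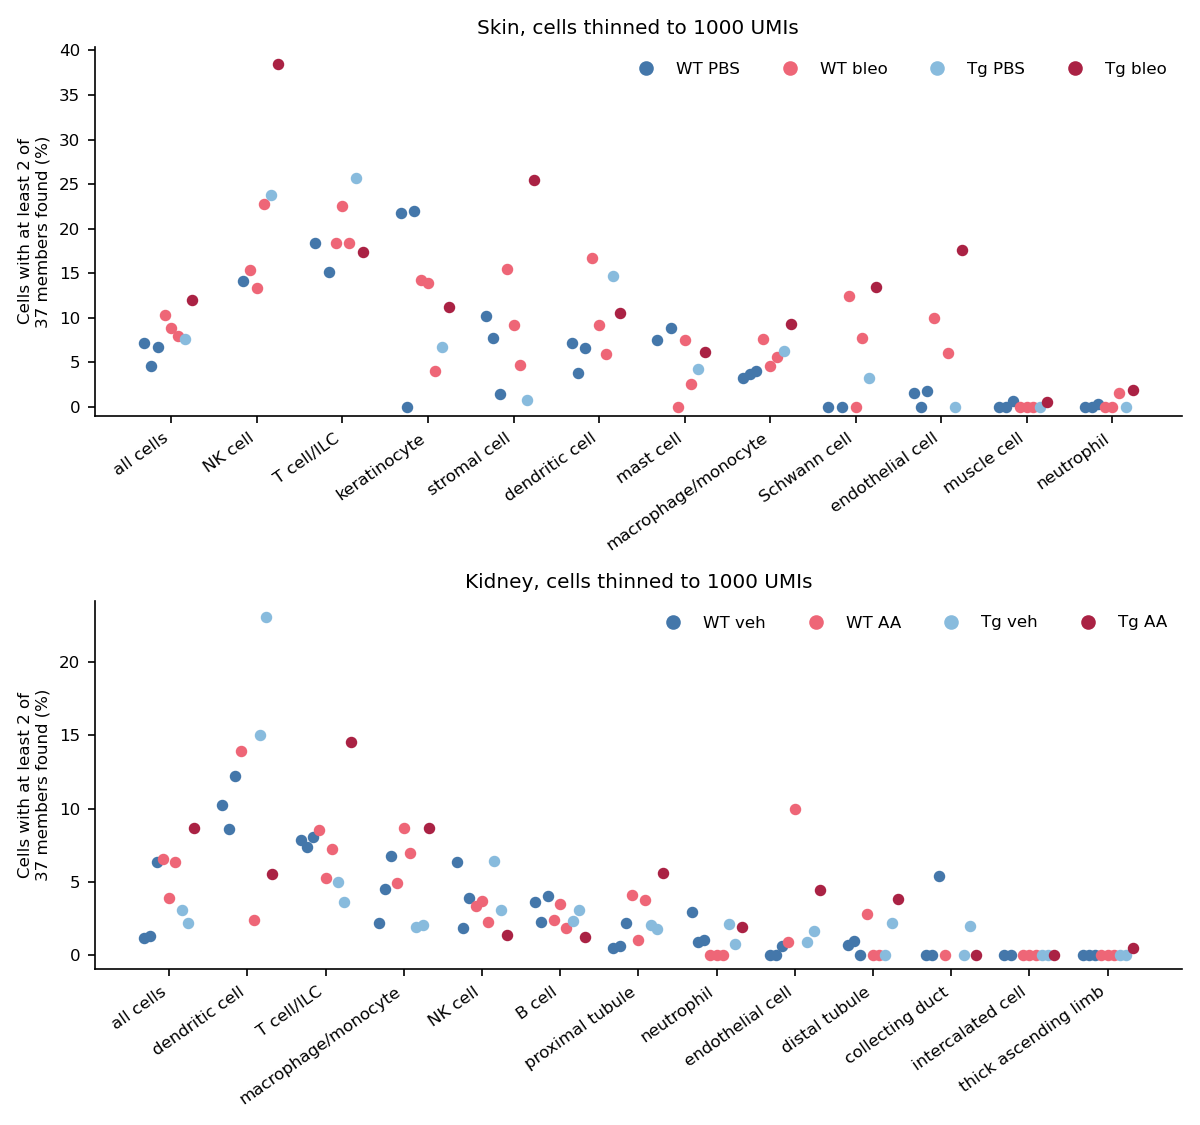
Percent of cells with at least 2 of 37 members after thinning to 1000 UMIs (y axis), for each class (x axis) in skin and kidney, 1 point per library coloured by group. Skin T cells lie between 15.2% and 25.7%, and muscle cells and neutrophils of skin near 0.

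The levels of single members were then compared between classes of the same libraries, with the library as a block, in comparisons added after the data had been seen. Skin T cells exceeded macrophages for 32 of the 40 members, none was lower, and the median log2 difference was 1.44 (all genes -0.05). Of all genes tested, 31.3% were higher in T cells by this test. All 9 spindle genes, 8 of 12 mitotic genes, 8 of 11 replication genes, 3 of 4 genes of deoxynucleotide synthesis and all 4 chromatin markers passed. The called spindle genes differed by 1.06 (Cenpe) to 2.98 (Nusap1), the mitotic genes by 0.88 (Aurkb) to 2.11 (Bub1b) and the replication genes by 0.74 (Mcm3) to 1.93 (Clspn). Nusap1, which bundles spindle microtubules, was at 33.1 and 15.2 CPM in T cells of SARAWT PBS 1 and 3, 38.3, 54.4 and 20.8 CPM with bleomycin, and 46.8 and 21.8 CPM in SARATg PBS and bleomycin. In macrophages it was between 1.003 and 6.95 CPM, so that the classes did not overlap (log2 difference 2.98, SE 0.37). Hmgb2 was also separated, at 810 to 1361 CPM in T cells and 154 to 236 CPM in macrophages (2.48, SE 0.13). Rrm2, the regulated subunit of ribonucleotide reductase, differed by 2.47 (SE 0.32), Top2a by 2.14 (SE 0.30), Cdk1 by 1.53 (SE 0.26), Mcm5 by 0.89 (SE 0.28) and Mki67 by 0.79 (SE 0.24, adjusted p = 0.0136). Pcna (0.07, SE 0.11) and the licensing factor Cdt1 (0.05) did not pass. Without the libraries with Zfyve9 signal against the label 30 members were higher, against 31.2% of all genes, with Mcm5 and Birc5 no longer called.

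In kidney, T cells exceeded macrophages for 24 of the 40 members with none lower, at a median of 0.72, against 36.0% of all genes called higher. Rrm2 differed by 1.80, Hmgb2 by 1.28, Clspn and Nusap1 by 1.22 each, Top2a by 0.99 (SE 0.21) and Mcm5 by 0.74 (SE 0.13), whereas Mki67 (0.48, SE 0.25, adjusted p = 0.0989) and Cdk1 (0.47, SE 0.21, adjusted p = 0.0701) did not pass. The test was passed by 9 of 11 replication genes and 5 of 12 mitotic genes. Without the libraries with Zfyve9 signal against the label 17 members were higher, against 32.7% of all genes, and the calls lost were all 5 of the mitotic genes (Birc5, Ccna2, Ccnb1, Cdc20 and Plk1) and the spindle genes Kif11 and Prc1. Dendritic cells exceeded macrophages for 26 members in skin (26.8% of all genes called higher) and 24 in kidney (20.7%), at medians of 0.85 and 0.87, and for 24 (23.7%) and 20 (15.7%) without those libraries. In skin, Cdt1 and Pcna went the other way. Cdt1 was at 6.98 to 22.4 CPM in dendritic cells and 25.8 to 49.1 CPM in macrophages (log2 difference -1.59), without overlap, and Pcna differed by -0.33 (SE 0.13, adjusted p = 0.0453). Tyms, the thymidylate synthase gene, was at 15.97 to 45.7 CPM in skin dendritic cells and 2.58 to 18.3 CPM in macrophages (1.75). The call of Pcna in this comparison was lost with at least 4 markers in the gate and without the libraries with Zfyve9 signal against the label, while that of Cdt1 was not.

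Among the other cell cycle lists, 23 of 34 other replication genes and 28 of 36 other mitosis genes were higher in skin T cells than in macrophages and 2 and 1 were lower. In kidney these were 27 and 22 higher, and 1 and 2 lower. The genes of these lists with the largest differences at a mean of at least 10 CPM were as follows. In skin T cells the cyclin genes Ccnd2 (4.35, SE 0.27) and Ccne2 (3.01, SE 0.26), Cdc25b, a phosphatase that activates Cdk1 (2.57, SE 0.20), the pocket protein gene Rbl2 (2.40, SE 0.15) and the dUTPase gene Dut (2.25, SE 0.21) were higher. Cyclin D1 (Ccnd1, -3.52, SE 0.26), the p21 inhibitor Cdkn1a (-0.98, SE 0.21), E2f1 (-0.75), Rb1 (-0.53) and Cdk4 (-0.42) were lower. In kidney T cells Cdc25b (2.53), Rbl2 (2.13), Dut (2.09), Ccnd2 (1.92) and the single-strand binding gene Rpa2 (1.66) were higher, and Ccnd1 (-3.03), Cdkn1a (-2.68), E2f2 (-0.55), Rb1 (-0.40) and Btg2 (-0.28) were lower. Dendritic cells exceeded macrophages most for Timeless, which travels with the fork, in skin (2.03) and kidney (2.88). Cks1b, a partner of cyclin-dependent kinases, was higher in them by 1.64 in skin and 1.498 in kidney. In skin Dut (1.59), Ccnd2 (1.58) and the p27 inhibitor Cdkn1b (1.45) were also higher, and the chromatin assembly gene Chaf1b (-0.88), Gadd45a (-0.66), Tob1 (-0.43), Rb1 (-0.37) and Rbl2 (-0.37) were lower. In kidney the kinetochore gene Spc24 (1.65), the chromatin remodeller gene Hells (1.26) and Dut (1.24) were also higher, and Cdk6 (-1.68), Cdkn1a (-1.27), the separase gene Espl1 (-0.59) and Rb1 (-0.56) were lower.

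**Figure D3:**
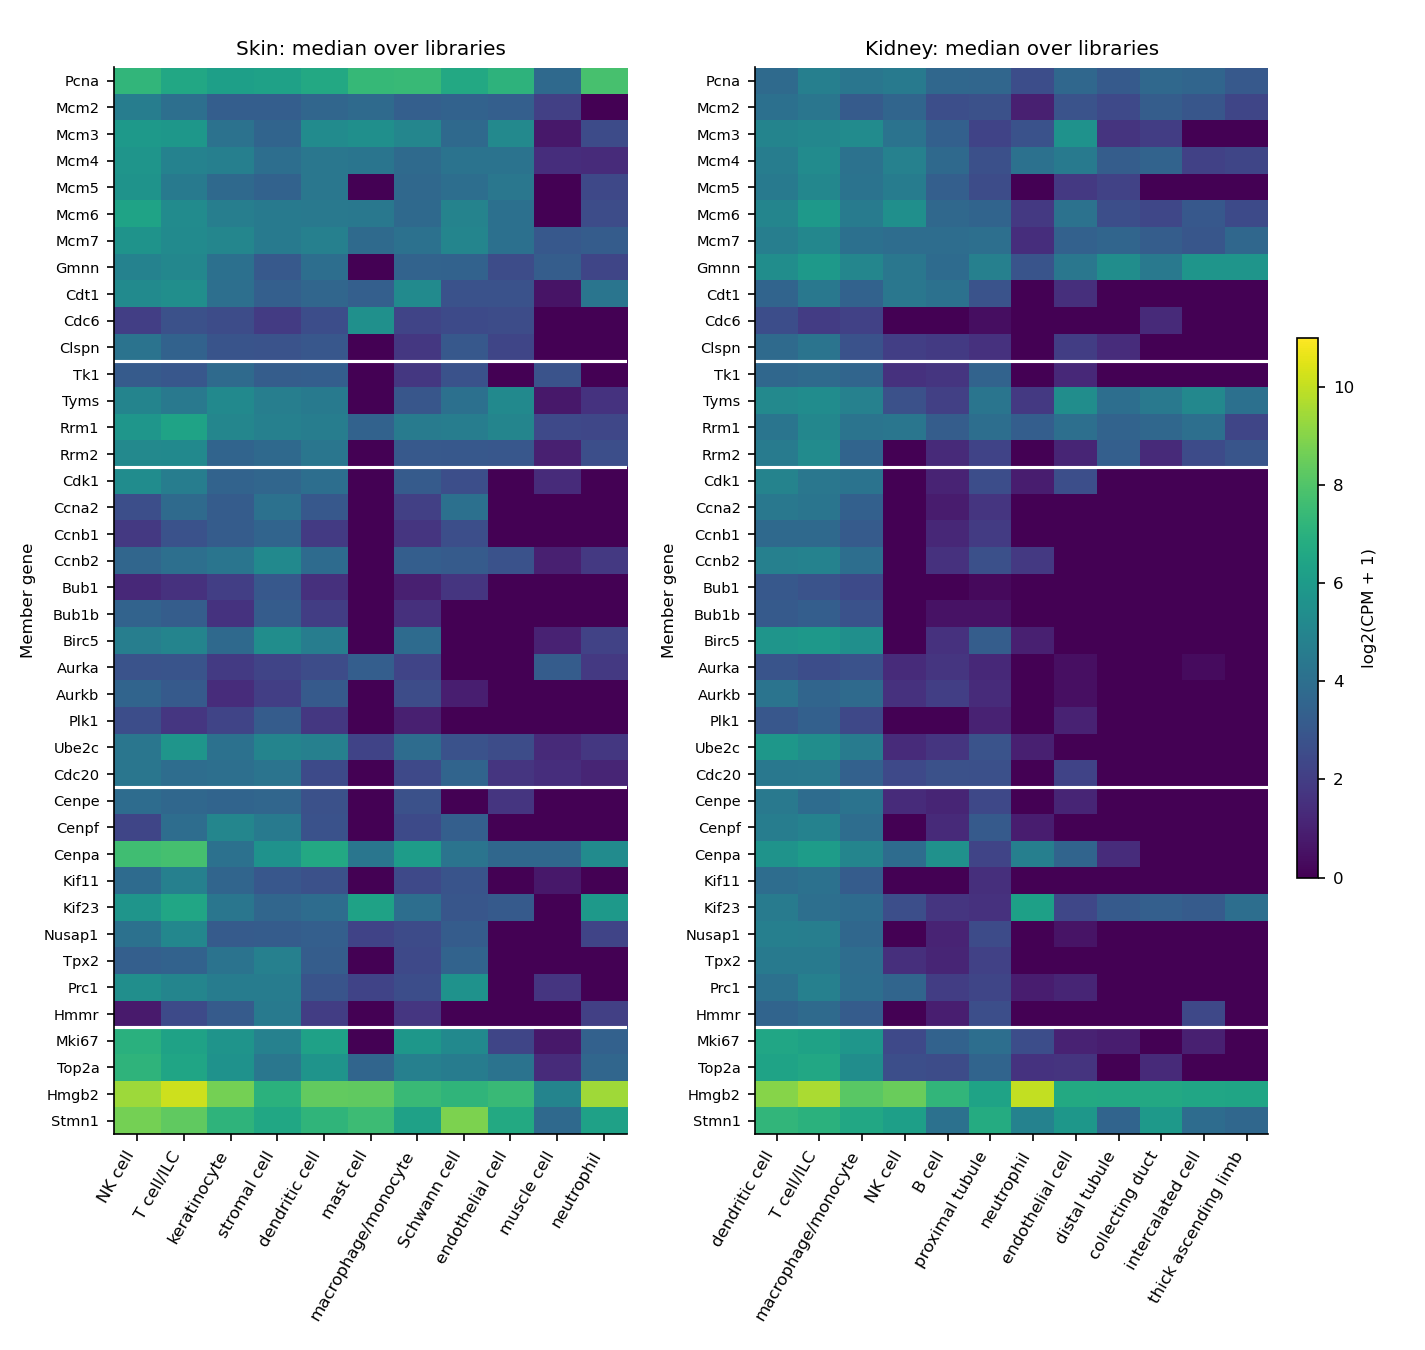
Level of the 40 members (rows, by role, parted by white lines) in the classes of skin (left) and kidney (right) with at least 5 libraries, as log2(CPM + 1), the median over libraries. Hmgb2 is high in most classes, at 810 to 1361 CPM in the libraries of skin T cells, and the mitotic genes are near 0 in muscle cells and in the thick ascending limb.

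In kidney, aristolochic acid was compared with vehicle in SARAWT mice. Over all cells 0 of the 40 members passed edgeR's quasi-likelihood test with Benjamini-Hochberg adjustment, as did 0 of 15734 genes (0.0%), with 1445 genes (9.18%) at an unadjusted p under 0.05 and 70 genes but no member called by DESeq2. All 40 log2 differences were above 0, with a median of 0.91 (all genes -0.05). Mki67 was at 5.26, 12.1 and 55.8 CPM in vehicle libraries 1 to 3 and 54.3, 19.2 and 52.0 CPM with aristolochic acid. Top2a was at 4.21, 8.51 and 51.9 CPM and at 58.2, 21.2 and 62.2 CPM, and Cdk1 at 1.53, 2.55 and 22.4 CPM and at 25.8, 13.1 and 20.2 CPM. Mcm5 was at 1.87, 3.62 and 23.2 CPM with vehicle and 24.6, 12.6 and 20.2 CPM with aristolochic acid. The library labelled vehicle 3 lay above the aristolochic acid libraries for Mki67 and among them for Top2a, Cdk1 and Mcm5, and the other vehicle libraries lay below all of them in each. Pcna alone of the 5 did not overlap, at 4.93, 5.61 and 16.7 CPM against 19.6, 22.0 and 28.3 CPM (log2 difference 1.26, SE 0.50, adjusted p = 0.432).

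The same library stood apart in other measures. The proximal tubule made up 77.6% and 72.2% of cells in vehicle 1 and 2, but 11.8% in vehicle 3, against 5.70%, 22.9% and 8.57% with aristolochic acid. T cells made up 3.92%, 4.29% and 48.2% with vehicle and 53.3%, 49.8% and 63.4% with aristolochic acid. Havcr1 (Kim-1), which injured tubule cells switch on, was at 0.867, 3.46 and 45.7 CPM in the proximal tubule of the vehicle libraries and 21.5, 21.7 and 29.9 CPM with aristolochic acid. Cdkn1a, the p21 inhibitor that rises with DNA damage, was at 23.9, 7.39 and 344 CPM and at 302, 200 and 344 CPM there. In sums over all cells, more cells of a type and more RNA per cell cannot be told apart.

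Without the library labelled vehicle 3, 33 of the 40 members were higher with aristolochic acid, where 17.9% of all 16161 genes were, and the median log2 difference was 2.52. The survivin gene Birc5 then differed by 3.33 (SE 0.48, adjusted p = 0.0125), Cenpa by 3.24, Ccnb2 by 3.20, Aurkb by 3.19, Cdk1 by 3.16 (SE 0.40, adjusted p = 0.00925), Top2a by 2.79 (SE 0.58), Mcm5 by 2.70 (SE 0.42), Mki67 by 2.17 (SE 0.57, adjusted p = 0.0381), Pcna by 2.00 (SE 0.25) and Rrm1 by 1.10. Mcm7, Gmnn, Tk1, Tyms, Cenpe, Kif23 and Stmn1 did not pass. Leaving out any other library gave no member past the threshold. As vehicle 3 had the highest levels among the vehicle libraries, leaving it out widens the difference by construction. The libraries that remain differ in their share of proximal tubule cells, as given above, and the part of this mix was not tested. Within kidney T cells the same fit called no member, at a median of 0.06. The share of cells with at least 2 of the 37 members was 1.13%, 1.29% and 6.37% with vehicle and 6.58%, 3.91% and 6.34% with aristolochic acid, and 3.04% and 2.20% in SARATg vehicle and 8.70% in SARATg aristolochic acid.

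**Figure D4:**
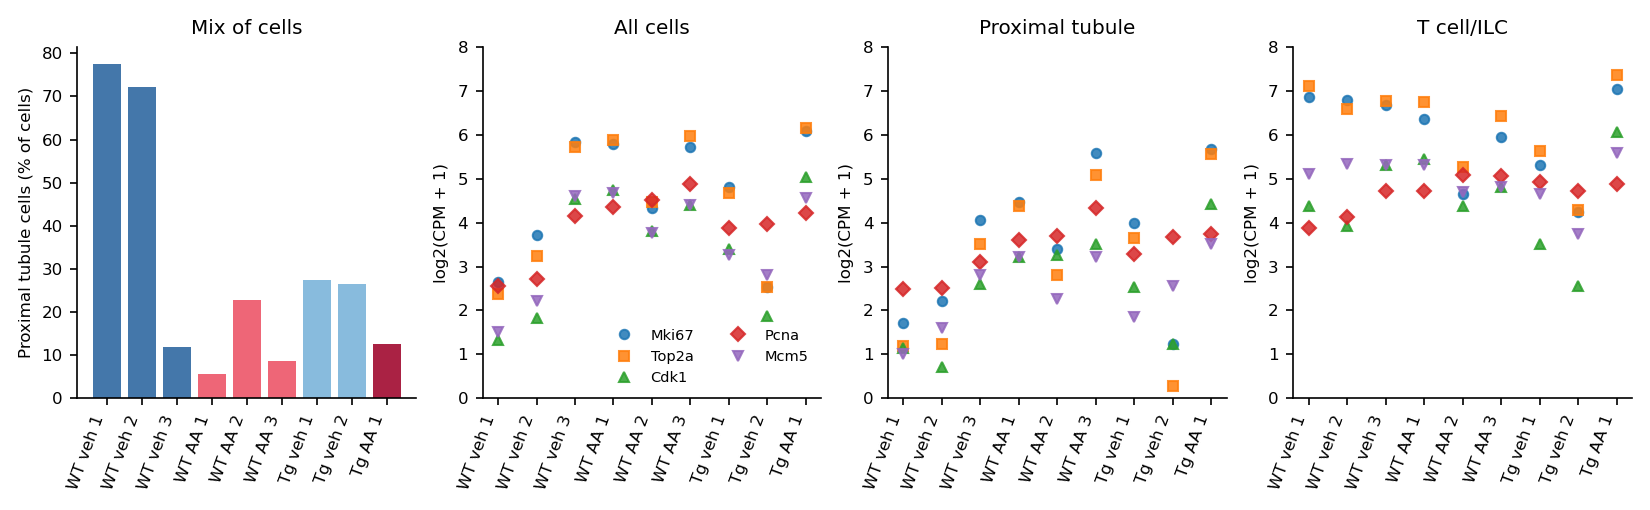
Kidney libraries (x axis, 9 libraries by group): percent of cells gated as proximal tubule (bars from 0) and log2(CPM + 1) of Mki67, Top2a, Cdk1, Pcna and Mcm5 in all cells, the proximal tubule and T cells (points). SARAWT vehicle 3, with 11.8% proximal tubule, lies with the aristolochic acid libraries in all cells, whereas Mki67 in T cells is at 101 to 116 CPM in the SARAWT vehicle libraries.

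Within the proximal tubule, which holds the transporters that reclaim filtered solutes, 37 members could be tested and 0 passed, as did 0 of 11875 genes (0.0%), with 88 genes but no member called by DESeq2. At an unadjusted p under 0.05 there were 6 members, all higher, and 9.84% of all genes. The log2 difference was above 0 for 35 of 37, with a median of 1.14 (all genes -0.01). Mki67 was at 2.26, 3.61 and 15.6 CPM with vehicle and 21.3, 9.55 and 46.8 CPM with aristolochic acid (1.66, SE 0.83). Top2a was at 1.28, 1.36 and 10.5 CPM and at 19.8, 6.02 and 32.99 CPM (2.00, SE 0.97), and both overlapped through vehicle 3. Cdk1 was at 1.20, 0.634 and 5.09 CPM with vehicle and 8.34, 8.63 and 10.4 CPM with aristolochic acid (1.86, SE 0.76, adjusted p = 0.470), without overlap. Pcna was at 4.59, 4.70 and 7.63 CPM with vehicle and 11.3, 11.9 and 19.2 CPM with aristolochic acid (1.11, SE 0.31, adjusted p = 0.470), also without overlap. Mcm5 was at 1.02, 2.05 and 5.97 CPM and at 8.34, 3.79 and 8.35 CPM (1.01, SE 0.67). The share of tubule cells with at least 2 of the 37 members was 0.491%, 0.600% and 2.20% with vehicle and 4.07%, 1.02% and 3.73% with aristolochic acid.

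Without vehicle 3, 9 of the tested members were higher in the proximal tubule, against 3.68% of all genes, with a median of 2.08. These were Top2a (3.61, SE 0.66, adjusted p = 0.0408), Prc1 (3.16), Cdk1 (3.05, SE 0.45, adjusted p = 0.0251), Birc5 (2.67), Tpx2 (2.66), Ccnb2 (2.57), Ccnb1 (2.53), Cenpf (2.37, SE 0.31) and Cdc20 (2.08), all of them genes of mitosis or chromosome untangling and none of replication. Mki67 (2.88, adjusted p = 0.0543) and Pcna (1.36, adjusted p = 0.0536) did not pass. T cell markers also moved with this result, as all 10 were found in 5 of the 6 libraries and 9 in vehicle 3, and their summed level in tubule cells was 1.64, 2.14 and 22.8 CPM with vehicle and 40.9, 46.4 and 78.7 CPM with aristolochic acid, against 5155 to 7363 CPM in the T cells of these libraries. Their part in the result was not tested.

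In kidney T cells 0 of 40 members passed edgeR's test and 0 DESeq2's, which called 11 genes, and 617 genes (5.14%) had an unadjusted p under 0.05, among them 1 member higher and 3 lower. Of the members, 9 log2 differences were above 0, and the median was -0.17, which turned to 0.06 without vehicle 3 and 0.03 without aristolochic acid 2. Mki67 was at 116, 110 and 101 CPM with vehicle and 80.7, 24.0 and 60.6 CPM with aristolochic acid (-0.86, SE 0.37, adjusted p = 0.877). Top2a was at 137, 95.3 and 108 CPM and at 106, 37.6 and 85.7 CPM, and Pcna at 13.7, 16.4 and 25.5 CPM and at 25.5, 32.9 and 32.6 CPM (0.71, SE 0.28). Vehicle 3 lay near the other vehicle libraries for Mki67 and Top2a, and aristolochic acid 2 was lowest for both. In macrophages 0 members passed, with 666 genes (5.89%) at an unadjusted p under 0.05 and 22 genes but no member called by DESeq2, at a median of 0.49, and without vehicle 3 there were 4 (2.58% of all genes called higher), namely Tk1 (2.28, SE 0.37), Birc5 (1.85), Stmn1 (1.49) and Pcna (1.28). Tk1 was at 2.54, 3.20 and 20.0 CPM in macrophages with vehicle and 15.1, 16.6 and 10.9 CPM with aristolochic acid, and Birc5 at 10.8, 18.5 and 43.5 CPM and at 45.7, 71.3 and 45.8 CPM. No member passed in B cells or dendritic cells (470 and 168 genes at an unadjusted p under 0.05, 0 genes called by DESeq2), nor in their fits without 1 library. Of the other lists over all kidney cells, 31 of 34 replication, 32 of 36 mitosis, 14 of 14 transcription factor, 8 of 8 G1 and 10 of 12 inhibitor genes had log2 differences above 0, none past the threshold.

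SARATg was compared with SARAWT in vehicle-treated kidneys, in a fit of all 9 libraries. Over all cells 0 of 40 members and 0 of 17812 genes (0.0%) passed, against 759 genes (4.26%) before adjustment at 0.05 and 143 genes but no member by DESeq2. The median log2 difference was -0.57, and without SARAWT vehicle 3 it was 0.92 with Pcna (1.31) and Cenpa (2.16) higher, against 4.59% of all genes, and without SARATg vehicle 2 it was 0.0028. Within T cells, 39 of 40 members were below 0 with a median of -1.45 (all genes -0.05) and 26 were lower at an unadjusted p under 0.05, where 9.75% of all genes passed in either direction, but none passed after adjustment. The SARATg vehicle T cells had Mki67 at 38.6 and 17.9 CPM, below the 116, 110 and 101 CPM of SARAWT vehicle given above (log2 difference -1.76, SE 0.48, adjusted p = 0.426). They had Top2a at 48.2 and 18.7 CPM (-1.58, SE 0.49), Cdk1 at 10.4 and 4.85 CPM (-1.63, SE 0.56) and Mcm5 at 24.0 and 12.3 CPM (-0.87, SE 0.32), all below every SARAWT vehicle library. Pcna, at 29.2 and 25.4 CPM, was the member above 0 (0.57, SE 0.31). Tk1 was at 6.43 and 2.61 CPM in SARATg and 10.3, 12.8 and 23.0 CPM in SARAWT vehicle. In macrophages 2 of 40 members were above 0, with a median of -1.02 and 15 lower at an unadjusted p under 0.05 (4.79% of all genes in either direction). The proximal tubule had 32 of 40 above 0 (median 0.39), B cells 18 of 26 (0.34) and dendritic cells 19 of 40 (-0.06), and no member passed in any of these.

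The only SARATg aristolochic acid library had Mki67 at 130 CPM, Top2a at 163 CPM and Cdk1 at 65.9 CPM in T cells, above all other kidney libraries. As this group is 1 library, the fits that use it assume that it varies like the others and have no replicate check in it. The aristolochic acid effect in SARATg minus that in SARAWT was thus positive for 39 of 40 members, with a median of 2.53, and 33 were higher at an unadjusted p under 0.05 (8.15% of all genes), but 0 passed after adjustment (Mki67 2.91, SE 0.70, adjusted p = 0.514). The median was 1.48 in macrophages and 0.46 in the proximal tubule, but -1.03 in B cells and -0.25 in dendritic cells, with no member past the threshold. The share of T cells with at least 2 of the 37 members was 7.86%, 7.34% and 8.04% in SARAWT vehicle, 8.51%, 5.24% and 7.24% in SARAWT aristolochic acid, 4.97% and 3.61% in SARATg vehicle, and 14.6% in SARATg aristolochic acid. The natural killer cell markers summed to 1166 and 1185 CPM in SARATg vehicle T cells, 1412 to 2103 CPM in SARAWT vehicle and 3011 CPM in SARATg aristolochic acid, and their part in the result was not tested. That SARATg aristolochic acid library is 1 of those with Zfyve9 signal against the label. SARAWT aristolochic acid 1, on the other side of this difference, is another, and no fit of the difference without it was made. The SARATg aristolochic acid library had Xist at 1357 CPM, and SARAWT vehicle 2 at 1411 CPM, against at most 0.502 CPM in the other kidney libraries. The part of sex in the result was not tested.

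In skin, bleomycin was compared with PBS in SARAWT mice. Over all cells 0 of 40 members and 0 of 15267 genes (0.0%) passed, with 2780 genes (18.2%) at an unadjusted p under 0.05 and 1325 genes but no member called by DESeq2. The log2 difference was above 0 for 38 members, with a median of 0.29 (all genes 0.01). Without bleomycin 1 it was above 0 for 21 members (median 0.01), without PBS 2 for 23 (0.08) and without PBS 1 for all 40 (0.66). Mki67 was at 52.2, 30.6 and 65.6 CPM with PBS and 60.3, 52.2 and 61.4 CPM with bleomycin (0.34, SE 0.29). Cdk1 was at 16.5, 7.81 and 8.01 CPM with PBS and 24.5, 11.96 and 8.4998 CPM with bleomycin (0.61, SE 0.45). Top2a was at 72.8, 25.3 and 39.4 CPM and at 62.7, 36.3 and 36.97 CPM (0.13, SE 0.38), and Mcm5 at 19.8, 9.68 and 11.4 CPM and at 19.4, 14.5 and 13.2 CPM (0.35, SE 0.29), so that the groups overlapped for each of these. The SARATg libraries had Mki67 at 66.6 CPM with PBS and 78.0 CPM with bleomycin, and Cdk1 at 10.4 and 29.7 CPM. Pcna followed the gene list, at 210 to 332 CPM in the 4 libraries counted on the longer list and 52.7 to 63.6 CPM in the others (bleomycin against PBS -0.21, SE 0.62). The shorter list, which all kidney libraries share, also holds the pseudogene Pcna-ps2, and the longer list does not. Over all barcodes of the shorter-list skin libraries it had 884 to 1245 UMIs, beside 3028 to 3658 of Pcna. Its part in the Pcna levels and shares of skin and kidney was not tested.

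In fits with the replicate number as a block, 655 genes (4.12%) but no member were called over all skin cells, at a member median of 0.36. The share of skin cells with at least 2 of the 37 members was 7.23%, 4.63% and 6.78% with PBS and 10.3%, 8.85% and 7.97% with bleomycin, and 7.60% and 11.97% in SARATg PBS and bleomycin. Macrophages, dendritic cells and T cells of skin had 0 members past the threshold, at medians of 0.22, 0.27 and 0.29. These medians turned to -0.08 and -0.25 in macrophages and dendritic cells without bleomycin 1, to -0.28 in dendritic cells without shared barcodes and to -0.12 in T cells without PBS 3. At an unadjusted p under 0.05 there were 1176, 952 and 555 genes, and DESeq2 called 222, 49 and 45 genes and no member. In macrophages Mki67 was at 24.5, 77.3 and 56.8 CPM with PBS and 47.9, 45.9 and 52.7 CPM with bleomycin. The other lists had 30 of 34 replication, 32 of 36 mitosis, 9 of 14 transcription factor, 4 of 8 G1 and 10 of 12 inhibitor genes above 0 over all skin cells, none past the threshold.

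In stromal cells, which make collagen, PBS 1 stood apart from the other PBS libraries. Mki67 was at 50.3, 7.66 and 5.73 CPM with PBS and 37.6, 22.9 and 32.9 CPM with bleomycin, and at 3.099 and 71.4 CPM in SARATg PBS and bleomycin. Top2a was at 119, 12.8 and 4.15 CPM with PBS and 66.0, 13.1 and 26.5 CPM with bleomycin, and Cdk1 at 26.1, 3.83 and 1.19 CPM and at 42.3, 4.58 and 18.1 CPM. PBS 1 lay among or above the bleomycin libraries in each. Of 39 members tested 0 passed, where 0.466% of all genes were higher, although 34 were above 0 with a median of 0.60 (all genes -0.03), 4 of them at an unadjusted p under 0.05, where 23.2% of all genes were in either direction. Ccnb2, cyclin B2, was at 32.7, 3.83 and 2.97 CPM with PBS and 64.9, 41.9 and 40.8 CPM with bleomycin, without overlap (1.80, SE 0.72, adjusted p = 0.185). With the replicate number as a block it passed (2.39, SE 0.51, adjusted p = 0.0490; 2.72% of all genes higher), the only member to do so. Without PBS 1, Ccnb2 (3.89, SE 0.41, adjusted p = 0.0315) and the spindle assembly gene Tpx2 (3.13, SE 0.45, adjusted p = 0.0496) passed, against 0.143% of all genes, and the median was 2.29, whereas without bleomycin 1 or without PBS 3 it was 0.09 and 23 members were above 0. DESeq2 called Ccnb2 (1.95), Cenpa (1.67) and Cdc20 (1.57), against 3.95% of all genes higher. Cenpa was at 39.8, 19.1 and 4.94 CPM with PBS and 73.9, 62.9 and 55.9 CPM with bleomycin, and Cdc20 at 13.5, 8.93 and 3.16 CPM and at 21.9, 26.2 and 24.2 CPM, both without overlap.

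Outside the list, 2 other cell cycle regulators passed the test in stromal cells. Cdkn2a, which encodes the cell cycle inhibitors p16 and Arf, was at 8.07, 16.6 and 15.2 CPM with PBS and 188, 152 and 115 CPM with bleomycin (3.60, SE 0.37, adjusted p = 0.0304), and at 3.73 and 122 CPM in SARATg PBS and bleomycin. Ccnd1, cyclin D1, which drives cells out of G1, was at 134, 102 and 119 CPM with PBS and 485, 353 and 316 CPM with bleomycin (1.72, SE 0.24, adjusted p = 0.0368). Each was the only gene of its list to pass. Of the other lists in stromal cells, 18 of 27 replication genes, 26 of 31 mitosis genes and 5 of 10 transcription factors tested were above 0. The share of stromal cells with at least 2 of the 37 members was 10.2%, 7.78% and 1.48% with PBS and 15.5%, 9.24% and 4.67% with bleomycin, and it was 0.847% and 25.5% in SARATg PBS and bleomycin. These rest on 155 to 968 cells per library. The 10 stromal markers, all found in every library, summed to 45976, 63118 and 83306 CPM with PBS, 24414, 45019 and 30583 CPM with bleomycin, and 221217 and 21250 CPM in SARATg PBS and bleomycin, and their part in these values was not tested.

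Keratinocytes went the other way. Of 15 members tested, 0 passed (0 of 5839 genes, 0.0%, with 716 genes or 12.3% at an unadjusted p under 0.05), all 15 were below 0 with a median of -1.09 (all genes 0.01), and 5 were lower at an unadjusted p under 0.05. DESeq2 called 51 genes, Stmn1 among them (0.462% of all genes lower), and without shared barcodes Ube2c (-4.16) and Stmn1 (-1.86) were lower, against 0.278% of all genes. Stmn1 was at 576, 153 and 453 CPM with PBS and 75.9, 126 and 99.9 CPM with bleomycin, without overlap (-1.92, SE 0.42, adjusted p = 0.137). Mki67 was at 178, 0 and 107 CPM with PBS and 52.2, 48.7 and 15.8 CPM with bleomycin, and Top2a at 224, 7.64 and 117 CPM and at 42.7, 24.4 and 24.5 CPM, where PBS 2 lay below all others. Cdk1 was at 50.1, 7.64 and 27.4 CPM with PBS and 4.74, 2.21 and 0 CPM with bleomycin, without overlap. In PBS 2 and the bleomycin libraries these Cdk1 levels are at most a few UMIs, near the floor, so their order partly reflects total UMIs. Pcna was at 183, 107 and 53.2 CPM and at 123, 93.0 and 24.6 CPM, and Mcm5 at 36.9, 7.64 and 30.9 CPM and at 0, 4.43 and 15.8 CPM. PBS 2 holds 18 keratinocytes. Without it the filter on low counts could be passed in PBS 1 and 3 alone, so 33 members were tested, none of them above 0. Of these 5 were lower, against 0.733% of all genes, namely Ube2c (-4.71, SE 0.58), Cdk1 (-4.36), Rrm2 (-4.14), Top2a (-2.44) and Stmn1 (-2.23). For members near the floor with bleomycin, which entered through PBS 1 and 3, the direction was largely fixed by the filter. The bleomycin libraries hold 29, 43 and 50 keratinocytes. Genes of keratinocyte and hair follicle types were looked at beside this. Lef1, a transcription factor of the follicle, was at 19.7, 7.64 and 27.2 CPM with PBS and 0 CPM in each bleomycin library, and Lgr5, of follicle stem cells, at 70.9, 84.1 and 23.6 CPM and at 19.0, 19.9 and 12.3 CPM. Krt79 was at 641, 413 and 899 CPM and at 745, 2515 and 4059 CPM, Krt25, of the inner root sheath, at 578 CPM in PBS 3 and at most 14.9 CPM elsewhere, and Krt6a at 2211 CPM in bleomycin 1 and at most 167 CPM elsewhere. Msx2 was at 23.8, 0 and 77.3 CPM and at 0, 4.43 and 0 CPM. Krt15, of the follicle bulge, overlapped, at 1165, 2508 and 614 CPM and at 769, 3469 and 1629 CPM. Krt5 (1920, 2645 and 1548 CPM, then 2980, 2479 and 2209 CPM) and Krt14 (1755, 3647 and 3125 CPM, then 4645, 3471 and 3401 CPM) also overlapped, as did Krt10 and Krt1. Lef1 in PBS 2 stood near the floor. Their part in the result was not tested.

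**Figure D5:**
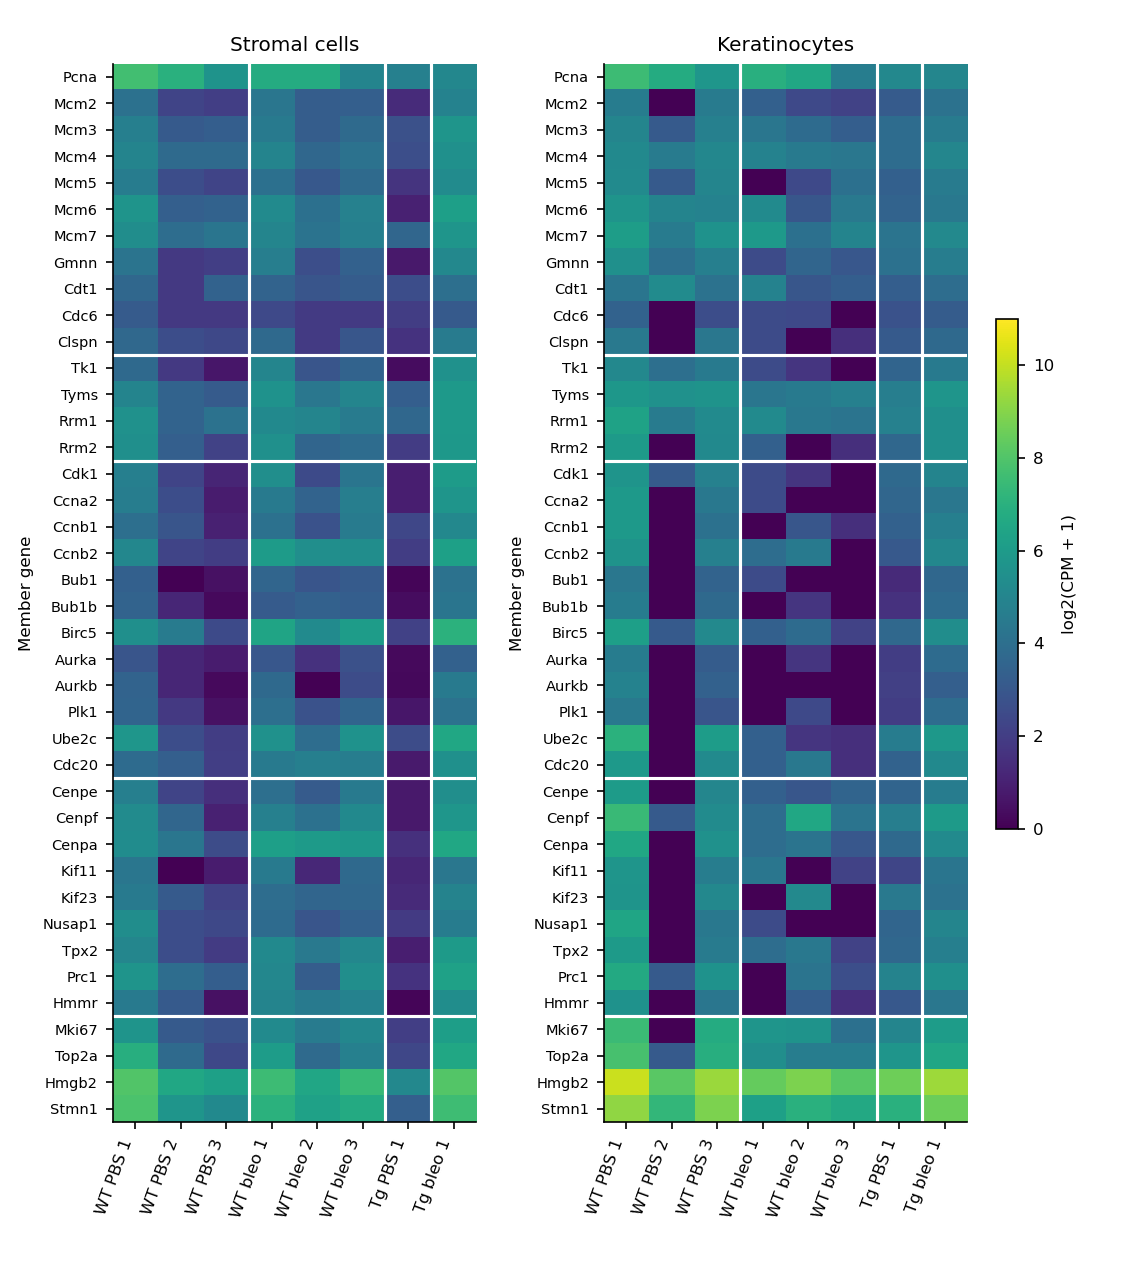
Level of the 40 members (rows, by role) as log2(CPM + 1) in stromal cells and keratinocytes of the 8 skin libraries (columns, by group). In stromal cells Mki67 is at 50.3 CPM in PBS 1 and 71.4 CPM in SARATg bleomycin and lowest in SARATg PBS, and in keratinocytes Mki67 and Top2a are highest in PBS 1 and PBS 3, and Cdk1 is at most at 4.74 CPM in the SARAWT bleomycin libraries.

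Whether bleomycin acted differently in SARATg skin was tested as the difference of the bleomycin effect, in which each SARATg group is 1 library assumed to vary like the others, so that the values compare these libraries and have no replicate check in SARATg. Over all cells 0 members passed, 37 were above 0 and the median was 0.51, which turned to -0.21, with 13 above 0, without SARAWT PBS 1 and 3, the libraries with Zfyve9 signal against the label. In keratinocytes, a fit added after the data had been seen, 9 members passed, all higher, against 0.878% of all genes, all 40 were above 0 and the median was 3.36. By role these were 5 mitotic genes (Ube2c, Cdk1, Ccna2, Bub1b, Birc5), 2 of deoxynucleotide synthesis (Rrm2, Tk1), 1 of the spindle (Nusap1) and 1 chromatin marker (Stmn1). Ube2c, the ubiquitin-conjugating enzyme of mitotic exit, was at 128, 0 and 66.7 CPM in SARAWT PBS and 9.49, 2.21 and 1.75 CPM in SARAWT bleomycin, but 23.2 CPM in SARATg PBS and 57.4 CPM in SARATg bleomycin (difference 5.73, SE 1.11, adjusted p = 0.00955). Rrm2 was at 62.6, 0 and 36.5 CPM, 9.49, 0 and 1.75 CPM, 11.6 CPM and 44.2 CPM in the same order (5.84, SE 1.18). Nusap1 was at 87.0, 0 and 20.3 CPM, 4.74, 0 and 0 CPM, 11.2 CPM and 31.4 CPM (6.93, SE 1.43). For these genes the SARAWT bleomycin values are at most a few UMIs per library, near the floor, so the size of the differences is uncertain. The values in SARATg bleomycin thus lay between those of the SARAWT PBS libraries, and those in SARATg PBS below PBS 1 and 3. With each SARATg group 1 library, the filter on low counts let in genes that reached its cutoff in a single library. All 40 members were therefore tested, against 15 in the fit of SARAWT keratinocytes. The added members could enter through the libraries where they were high, and the effect of this on the calls and the median was not tested. Of the follicle and keratinocyte genes, Lef1 was at 0.860 and 5.65 CPM in SARATg PBS and bleomycin, Msx2 at 3.44 and 10.98 CPM, Lgr5 at 6.45 and 24.2 CPM and Krt25 at 0 and 14.7 CPM, whereas Krt15, of the follicle bulge, was at 1444 and 492 CPM and the basal keratin gene Krt5 at 2864 and 1453 CPM. Krt79 was at 563 and 4449 CPM, Krt6a at 5.37 and 167 CPM and Krt1 at 5283 and 8242 CPM. Krt10 was at 12943 and 11696 CPM and Krt14 at 3739 and 3238 CPM. Their part in the result was not tested.

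Mki67, at 30.7 CPM in SARATg PBS and 66.8 CPM in SARATg bleomycin (2.70, SE 0.96, adjusted p = 0.296), Top2a (2.87, SE 0.91) and Mcm5 (3.08, SE 0.94) did not pass. No member was called without SARAWT PBS 1 or without PBS 3. Without both, which leaves the 18 keratinocytes of PBS 2 as SARAWT PBS, 0 of 31 members passed, 13 were above 0 and the median was -0.35. No member was called with DESeq2 or without the gene list as a covariate, whereas 21 to 25 were without PBS 2 or 1 of the bleomycin libraries, against 1.68% of all genes higher without PBS 2 and 2.19%, 1.53% and 1.32% without bleomycin 1 to 3. Of the other lists, Pbk (5.86, SE 1.23), Kif20b (4.51, SE 1.02) and Uhrf1 (3.98, SE 0.95) passed. The share of keratinocytes with at least 2 of the 37 members was 21.8%, 0% and 22.0% in SARAWT PBS, 14.3%, 13.9% and 4.08% in SARAWT bleomycin, 6.69% in SARATg PBS and 11.2% in SARATg bleomycin, where the 0% of PBS 2 rests on 18 cells.

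In stromal cells, the same test gave no member past the threshold, where 1 gene (0.00745%) passed. All 40 members were above 0 at a median of 3.32 (37 at 2.30 without SARAWT PBS 1 and 3), and 29 had an unadjusted p under 0.05 (10.1% of all genes). Mki67 differed by 3.33 (SE 1.22, adjusted p = 0.421), Mcm5 by 3.43 (SE 1.10) and Cdk1 by 4.33 (SE 1.75). DESeq2 called Mcm6 (5.33), a helicase subunit at 1.03 CPM in SARATg PBS and 72.4 CPM in SARATg bleomycin, and Cdc20 (3.85), against 0.32% of all genes higher. In T cells, Mki67 alone passed and in the opposite direction (-2.39, SE 0.37, adjusted p = 0.0392), against 0.0771% of all genes lower. It was at 79.4 and 76.7 CPM in SARAWT PBS 1 and 3, 68.7, 92.7 and 82.1 CPM with bleomycin, 263 CPM in SARATg PBS and 54.8 CPM in SARATg bleomycin. Top2a was at 206 CPM in SARATg PBS and 71.0 CPM in SARATg bleomycin, against 75.4 to 153 CPM in SARAWT (-1.80, SE 0.44, adjusted p = 0.322). The only SARAWT PBS libraries in this fit, PBS 1 and 3, are both among those with Zfyve9 signal against the label, since PBS 2 holds 9 T cells, so that no fit without them was possible. Mki67 also passed with DESeq2 (-2.39, 0.106% of all genes lower) and without any 1 SARAWT library, but not without the gene list as a covariate (-2.40, adjusted p = 0.716). There were 7 members lower without bleomycin 3 (0.653% of all genes) and 9 without PBS 3 (0.735%), Birc5, Ccnb2, Cenpe, Cenpf, Top2a and Ube2c among both. In T cells the median member was -1.11, and that of keratinocytes 3.36, from the same 2 SARATg libraries. Dendritic cells had a median of -0.65 with 10 of 40 above 0, and macrophages one of 0.10 with 25 above 0, with no member past the threshold.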

How the data were processed

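Single-cell RNA libraries (10x 3′ v3) of sorted GFP+ cells from skin (8) and kidney (9) were analysed. The deposited values are raw UMI counts per gene and cell, made by the authors with Cell Ranger on mm10 (the submitters' processing notes name Cell Ranger 3.0.2 and Seurat 2.3.4, and the file headers Cell Ranger 4.0.0 for 4 skin libraries, 3.1.0 for the other skin libraries and 3.0.2 for kidney). Barcodes below 200 genes or above 20% mitochondrial UMIs were dropped, and doublets were removed with scrublet in scanpy 1.11.5 at 0.8% per 1000 cells. A class needed at least 3 of its 10 markers and a margin of 2 over the next class, and a library entered a class with at least 10 cells. Counts were summed per library and class and compared by the quasi-likelihood test of edgeR 4.0.16 in R 4.3.3, after filterByExpr and TMM scaling, with Benjamini-Hochberg adjustment over all genes tested and a threshold of 0.05. CPM divides by the summed UMIs. DESeq2 1.42.0, other filters, a replicate block, the gate and leaving out each library were alternatives. The treatment fits and some of the differences between genotypes were tested on simulated data. Cells with fewer than 1000 UMIs were left out of thinned shares, between 76 of 6958 (kidney SARATg aristolochic acid) and 1198 of 9182 (skin SARAWT PBS) per group.

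The members and gene lists were chosen with earlier results of these data known, so the share of cells is given with no p, although a permutation test with a smallest p of 0.1 had been planned. Same-numbered skin libraries deviated together (correlations 0.1305 to 0.5458 over all cells) and share a gene list. Differently numbered libraries on the same list did so too (bleomycin 1 with PBS 2 at 0.2163, bleomycin 2 with PBS 1 at 0.1976). Pairs across the lists were at -0.4025 to -0.2777, so that number and list cannot be told apart. In kidney the numbers did not pair (-0.3864 to 0.4171). Libraries are replicates by their labels alone, so p-values measure the spread between libraries, which may be technical. Values are given for members past the threshold and for Mki67, Top2a, Cdk1, Pcna and Mcm5 (between classes, where up to 32 members passed, as counts and ranges by role with examples), and from the other lists for the 5 most changed genes each way (fewer where fewer passed) among those past the threshold with a mean of 10 CPM or more. Depth is given as total UMIs, and UMI intervals would cover counting error only. Mcm4, Gmnn, Ccna2, Aurkb, Tpx2 and Stmn1 had no promoter in the RefSeq table.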

Additional observations from a re-analysis of the deposited data

Results flagged for a closer look

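In 10 cases the bleomycin effect on a member differed between SARATg and SARAWT skin by edgeR's quasi-likelihood test of the difference with Benjamini-Hochberg adjustment, in fits where each SARATg group is 1 library assumed to vary like the others and has no replicate check. In keratinocytes the log2 differences were 6.933 for Nusap1 (SE 1.43, adjusted p = 0.0157), 6.867 for Bub1b, 5.875 for Ccna2 (adjusted p = 0.0479), 5.845 for Rrm2, 5.734 for Ube2c (adjusted p = 0.00955), 5.441 for Cdk1, 4.864 for Tk1, 4.188 for Birc5 and 3.439 for Stmn1 (SE 0.724). None of these 9 passed without SARAWT PBS 1, without PBS 3 or without both, where the member median was -0.35, both being libraries with Zfyve9 or human ZFYVE9 signal against the label, and the SARAWT bleomycin libraries hold 29, 43 and 50 keratinocytes. In T cells Mki67 differed by -2.391 (SE 0.368, adjusted p = 0.0392), with 263 CPM in SARATg PBS above the 68.7 to 92.7 CPM of the SARAWT libraries, and it did not pass without the gene list as a covariate (adjusted p = 0.716). The SARAWT PBS libraries of that fit are PBS 1 and 3 alone. In keratinocytes, Nusap1, Rrm2, Ube2c and Cdk1 have at most a few UMIs in each SARAWT bleomycin library, so the size of their differences is uncertain. The filter on low counts also let in genes that reached its cutoff in a single library, so members could enter through the libraries where they were high.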

How the results depend on the processing

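Members past the threshold changed in number as follows. With aristolochic acid over all kidney cells there were 0, and 0 to 33 when 1 library was left out, the 33 without SARAWT vehicle 3. Over 10 classes (skin keratinocytes and stromal cells, kidney proximal tubule and B cells, and the T cells, dendritic cells and macrophages of both tissues) the total was 0, with 7 in fits with the replicate block, 4 with DESeq2, 2 without shared barcodes, and 0 to 13 when 1 library was left out. The replicate block called 6 members lower in keratinocytes (1.18% of all genes lower), where the numbers do not pair the libraries, 1 higher in stromal cells (Ccnb2) and, outside these 10 classes, Mki67 higher in Schwann cells (4.40, 2.36% of all genes higher). For SARATg against SARAWT vehicle kidneys the count was 0, and 0 to 2 when 1 library was left out, and the median log2 difference turned from -0.57 to 0.21 with the replicate block. The difference of the bleomycin effect in keratinocytes gave 9, but 0 with DESeq2, 0 without the gene list covariate, 0 without SARAWT PBS 1 and 3 and 0 to 25 when 1 library was left out. In stromal cells it gave 0, but 2 with DESeq2, and in T cells 1, but 0 without the gene list covariate and 1 to 9 when 1 library was left out. The aristolochic acid difference in the share of kidney cells with at least 2 of the 40 members was 5.80 percentage points, 11.1 when cells were thinned to 2000 UMIs, and 4.104 to 9.005 when 1 library was left out. The bleomycin difference in skin, 1.421, ranged from -0.2551 to 4.521 when 1 library was left out and was -0.5277 at 500 UMIs. Median log2 differences, which carry no test, turned in sign in the T cells, dendritic cells and B cells of kidney and in the T cells, dendritic cells and macrophages of skin when 1 library was left out. The cause of these changes was not tested. The other 109 values that answer a comparison, and 89 of 98 further values, were counted as unchanged. A count of members then equalled or lay close to that of the main fit, or a difference of shares lay within the spread between libraries. Single members could still be lost, as in kidney T cells against macrophages, with 24 called and 17 without the libraries with Zfyve9 signal against the label. Shares under the replicate block were counted as unchanged without a check. A count of 0 has no direction. In simulated data, 0% of 200 genes changed by a log2 fold of 2 were recovered over all kidney cells, 57.5% over all skin cells, 0% for SARATg against SARAWT vehicle, 12% in the keratinocyte difference and 0.5% in the stromal difference. Of the simulated calls, 8% were false over all skin cells and 14.9% in skin macrophages with the replicate block. In the differences of the bleomycin effect these were 17.9% over all skin cells, 4% in keratinocytes and 50% in stromal cells. The T cell difference and the comparisons between classes were not simulated.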

Other observations

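Schwann cells of skin, which wrap nerve fibres, had at least 5 of the 37 members in 21.2%, 23.1% and 22.1% of cells with bleomycin and in 4%, 0% and 0% with PBS, where median depths were 12066 to 13299 UMIs with bleomycin and 4053 to 7870 UMIs with PBS. These shares rest on few cells, 33, 13 and 77 with bleomycin and 25, 5 and 32 with PBS. After thinning to 1000 UMIs, at least 2 of the 37 members were found in 12.5%, 0% and 7.79% of Schwann cells with bleomycin and in 0% in each PBS library. In the comparison of levels, 5 members were tested in Schwann cells, 0 passed edgeR's test (995 of 4324 genes had an unadjusted p under 0.05), 2 were above 0 and the median log2 difference was -0.44. With the replicate number as a block Mki67 passed (4.40), as given above with the share of all genes, so that the result depends on the fit.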
